A study of Danio rerio with 10 samples.

Results

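The subject is a set of 10 oligodendrocyte and myelin genes: mbpa, mbpb, plp1b, mpz, cldnk, sox10, olig2, cnp, gpr37a and cd9b. They were chosen by name, and each matched 1 row by its gene symbol, so all 10 were found among the 21756 genes of the deposited table, and all 10 passed the filter on low values. The libraries came from brains of zebrafish aged 3 months with the transgene pair Neuro:NTR-mCherry and mpeg1:GFP, which every group carried. Nitroreductase (NTR) makes metronidazole (MTZ) toxic to the cells that hold it, and GFP is driven by the promoter of mpeg1, a gene of macrophages in general, so the reporter does not separate microglia from other macrophages. Control microglia (samples 1 and 5) were GFP-positive cells of fish given DMSO, the solvent. Activated microglia were GFP-positive cells of fish given MTZ for 24 h (samples 3 and 7) or 48 h (samples 4 and 8). Other brain cells (samples 2, 6 and 10) were the GFP-negative cells, and the labels do not name the treatment of their fish. Brains were digested with trypsin on ice, and microglia were enriched on a Percoll density gradient before the sort. Whether samples came from separate or pooled animals is not labelled, and the p-values therefore cover only how these samples vary, which may be technical.

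Oligodendrocytes wrap axons in myelin, a stack of compacted membrane. Their identity rests on transcription factors such as Olig2 and Sox10, and Sox10 turns on many genes of the sheath. The sheath proteins are made at very high levels. In mammals the mRNA of myelin basic protein is carried out along the cell processes and translated at the sheath, whereas the mRNA of proteolipid protein is translated near the nucleus. Microglia do not make myelin, and they take up myelin debris.

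The values are a normalized signal per gene, scaled by the authors. Within each library it rises in equal steps, 1 step per read, from a constant of 0.223 that stands for 0 reads, so reads per gene could be counted. The 9 libraries used held between 6185540 and 12815571 reads, and 3 reads were worth between 0.216 and 0.464 units of signal. Sample 9, labelled as control microglia, carried the very same values as 24 h sample 3 in all 21756 genes, so its column was left out and control microglia had 2 libraries. The shared values were kept under the label of sample 3, and which of the labels they belong to was not tested. Of 19 measured microglia core genes, 19 were higher in control microglia than in other brain cells, where 15.1% of all genes tested were. Their summed signal ran from 49867.2 to 155230.9 in the 6 microglia libraries and from 425.9 to 963.0 in other brain cells. The list includes mpeg1.1, and mpeg1 drove the reporter of the sort. It was also chosen with earlier results of these data known, so these values describe the libraries and do not test their labels. Signals are not corrected for gene length, so levels are compared between libraries and not between genes. In bulk RNA, fewer cells of a type and less RNA per cell cannot be told apart.

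Transcripts of the sheath proteins were abundant in other brain cells and still present in every microglia library. mbpa (ENSDARG00000036186) encodes myelin basic protein, which holds the inner faces of the membrane together. Its signal was 12089.7, 19307.6 and 6891.7 in other brain cell samples 2, 6 and 10. In control microglia it was 1451.8 in sample 1 and 628.7 in sample 5. In activated microglia it was 253.7 and 375.7 at 24 h (samples 3 and 7) and 160.8 and 314.4 at 48 h (samples 4 and 8). The ranges of other brain cells, control and activated microglia did not overlap, in that order from high to low, and the 24 h and 48 h ranges did.

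plp1b (ENSDARG00000011929) encodes proteolipid protein, the main membrane-spanning protein of central myelin in mammals. Its signal was 14333.7, 16262.7 and 7902.2 in other brain cell samples 2, 6 and 10, and 329.4 and 211.3 in control samples 1 and 5. It was 48.7 and 110.1 in 24 h samples 3 and 7 and 38.0 and 73.6 in 48 h samples 4 and 8. Every activated library thus lay under both control libraries.

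mpz (ENSDARG00000038609) encodes myelin protein zero, an adhesion protein that fish use in central myelin and mammals in peripheral myelin. It was nearly level across other brain cells, at 7549.4, 7439.0 and 7494.5, where mbpa and plp1b varied more. It stood at 183.6 and 135.1 in control samples 1 and 5, at 45.0 and 110.1 in 24 h samples 3 and 7, and at 43.4 and 81.7 in 48 h samples 4 and 8. Again no activated library reached the lower control library.

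cldnk (ENSDARG00000042357) encodes claudin k, a tight junction protein of zebrafish myelin. Its signal was 1102.2, 1357.2 and 846.6 in other brain cells and 27.6 and 13.0 in control microglia. It was 5.42 and 6.89 at 24 h and 3.54 and 4.11 at 48 h, so that control and activated microglia were apart here too. The 48 h libraries held 29 and 31 reads of it.

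The transcription factor genes were close to the limit of detection in most microglia libraries. sox10 (ENSDARG00000077467) stood at 126.3, 95.8 and 119.5 in other brain cells. It gave 10 and 2 reads in control samples 1 and 5, 2 reads in 24 h sample 3, 38 in 24 h sample 7, and 2 and 1 in 48 h samples 4 and 8. olig2 (ENSDARG00000040946) stood at 167.8, 81.2 and 140.6 in other brain cells. It gave 28 and 8 reads in control samples 1 and 5, 3 and 20 in 24 h samples 3 and 7, and 1 and 2 in 48 h samples 4 and 8. Control sample 1 and 24 h sample 7 thus held the most reads of both factors among microglia.

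The other members followed different courses. gpr37a (ENSDARG00000074563) encodes a receptor whose mammalian counterpart GPR37 is found in oligodendrocytes. Its signal was 45.3, 38.1 and 33.8 in other brain cells and 12.7 and 16.4 in control microglia. It was 4.8 and 1.16 at 24 h and 1.25 in 48 h sample 4. In 48 h sample 8 it had 0 reads, and 3 reads there were worth 0.376 units above the constant. Here control sample 5 was the higher control library, unlike for mbpa, plp1b, mpz and cldnk.

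cd9b (ENSDARG00000016691) encodes a tetraspanin, a family of membrane organizers that mammals also use in macrophages. It stood at 1359.0, 1717.9 and 486.4 in other brain cells and at 29.9 and 13.8 in control microglia. It was 50.2 and 77.1 in 24 h samples 3 and 7 and 25.8 and 202.2 in 48 h samples 4 and 8. Sample 8 was the highest microglia library and sample 4 lay between the control libraries.

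mbpb (ENSDARG00000089413), the paralogue of mbpa, ran from 55.5 to 108.7 over the 6 microglia libraries against 225.0, 254.9 and 118.3 in other brain cells, and control and activated libraries overlapped. cnp (ENSDARG00000070822) encodes a cyclic nucleotide phosphodiesterase that is abundant in mammalian oligodendrocytes. It was 86.8, 102.1 and 135.8 in other brain cells and 109.8 and 96.1 in control microglia. It was 167.4 and 171.5 at 24 h and 154.3 and 121.4 at 48 h, above both control libraries in each activated library. This depended on the scaling. On RPM (reads scaled to the library total) cnp in 48 h sample 8 was 84.2, under control samples 1 and 5 (102.8 and 91.3). Samples 3, 7 and 4 stayed above both, at 168.2, 170.1 and 144.6. For cnp the microglia and the other brain cells overlapped.

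**Figure D1:**
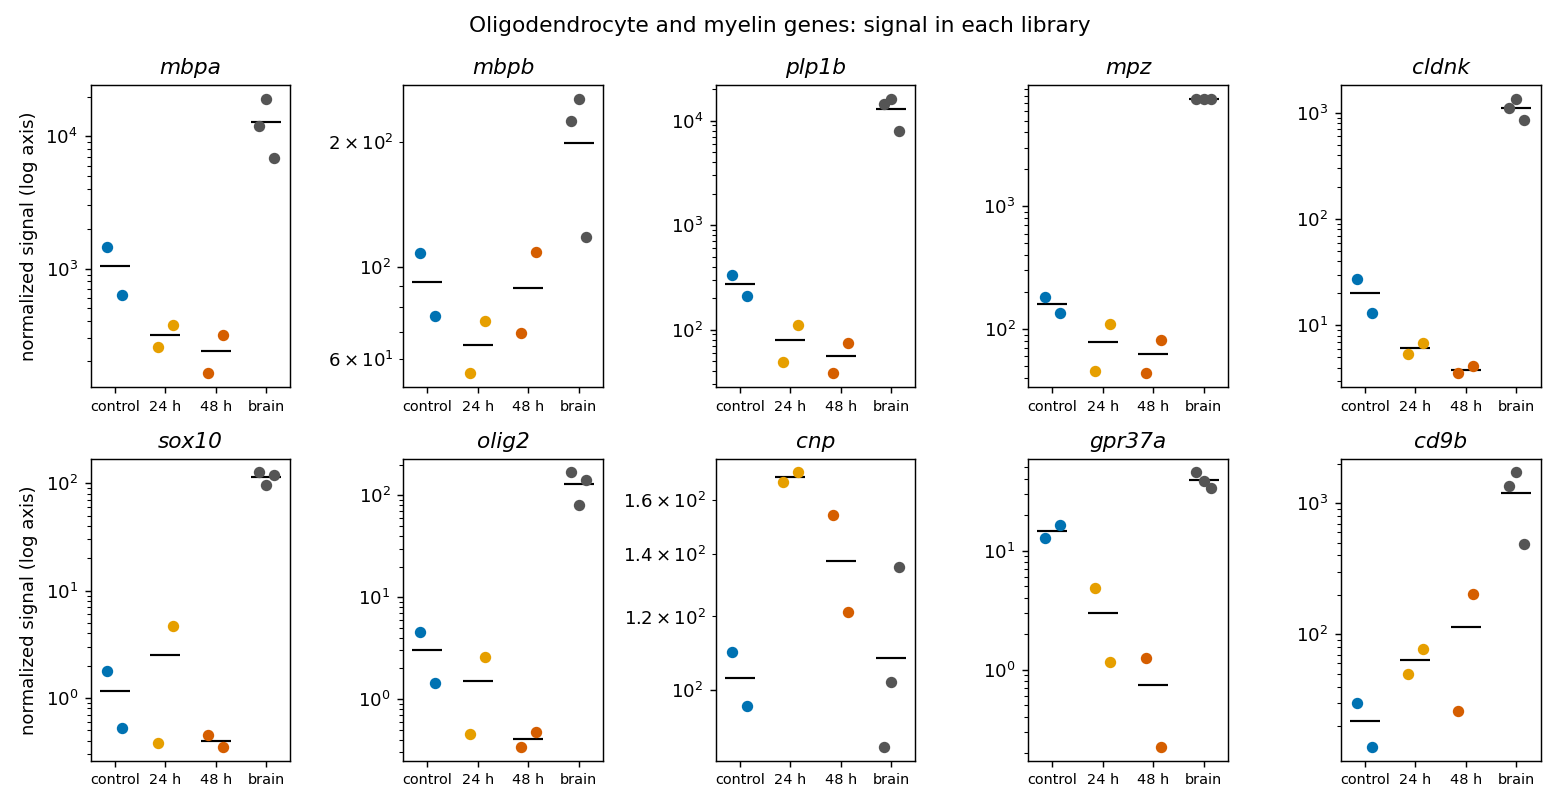
Normalized signal (log axis, scale differs by panel) of the 10 genes in control microglia, activated microglia at 24 h and 48 h, and other brain cells (brain); points are libraries and bars group means. For mbpa, plp1b, mpz and cldnk every microglia library sits far under other brain cells with control above activated, cnp overlaps between microglia and brain, and the lowest gpr37a point is 48 h sample 8 at the constant of 0.223 that stands for 0 reads.

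Control microglia were compared with the GFP-negative cells, the fraction that holds the oligodendrocytes of the brain. In limma with Benjamini-Hochberg adjustment over 21714 genes, 8 of the 10 members were lower and 0 higher, against 20.2% of all genes tested that were lower and 15.1% that were higher. Both control libraries lay under every other brain cell library for 9 members, all but cnp, and for 32.6% of all genes tested. The median member differed by -5.31 and the median of all genes by -0.14 on the log2(signal + 1) scale. sox10, cldnk, mpz and plp1b differed by -5.79 ± 0.38, -5.76 ± 0.40, -5.56 ± 0.42 and -5.53 ± 0.54 (log2, SE; limma adjusted p = 5.35e-05, 6.29e-05, 7.59e-05 and 0.000199). cd9b and olig2 differed by -5.61 ± 0.57 and -5.09 ± 0.47. The sox10 signal in control samples 1 and 5 was 1.77 and 0.527, near the pseudocount of 1, so the size of its difference depends on that setting. Over the 16 alternatives the difference ran from -7.56 to -4.27 for sox10 and from -6.09 to -4.04 for olig2, and both stayed called. mbpa, at -3.61 ± 0.68 (limma adjusted p = 0.00357), and gpr37a, at -1.37 ± 0.33 (limma adjusted p = 0.0127), were lower by less. mbpb, at -1.05 ± 0.40 (limma adjusted p = 0.0761), and cnp, at -0.05 ± 0.32 (limma adjusted p = 0.927), did not pass. The sign for cnp turned to 0.12 without other brain cell sample 10 and to 0.04 without control sample 5. Over the 16 alternatives the adjusted p ran from 0.000505 to 0.191 for mbpa, from 0.00546 to 0.102 for gpr37a and from 0.00909 to 0.38 for mbpb. mbpa lost its call when control sample 1 (limma adjusted p = 0.0806) or sample 5 (0.191) was left out. gpr37a lost its call when control sample 1 (limma adjusted p = 0.102), sample 5 (0.0567) or sample 2 of the other brain cells (0.0604) was left out. mbpb was called in 5 alternatives. The authors' deposited table has a comparison headed MG_VS_WB, and the libraries behind it are not named, so it may not be the same comparison. It gives log2 fold changes of -3.73 for mbpa, -6.26 for sox10, -1.10 for mbpb and 0.16 for cnp (FDR 6.96e-08, 2.38e-11, 0.0139 and 0.774). At an FDR under 0.05 it has 9 members lower, with 24.9% of its genes lower and 17.9% higher.

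Activated microglia, pooled over both times as the series design states, were compared with the same other brain cells. In limma with Benjamini-Hochberg adjustment 9 members were lower and 0 higher, against 27.6% of all genes tested that were lower and 22.9% that were higher. The exception was cnp, at 0.51 ± 0.27 (limma adjusted p = 0.14), which turned to -0.10 after quantile normalization. The same 9 members were under every other brain cell library in all 4 activated libraries, as were 29.3% of all genes tested. The median member differed by -5.66 and the median of all genes by -0.05. plp1b differed by -7.60 ± 0.43, cldnk by -7.53 ± 0.30, mpz by -6.83 ± 0.38 and mbpa by -5.47 ± 0.46 (log2, SE; limma adjusted p = 2.34e-06, 7.53e-07, 2.18e-06 and 1.16e-05). gpr37a, cd9b and mbpb differed by -4.04 ± 0.49, -3.93 ± 0.66 and -1.33 ± 0.35. The 9 members stayed called in all 17 alternatives. The 2 comparisons share the other brain cell libraries, so their values are set side by side without a measure of likeness.

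**Figure D2:**
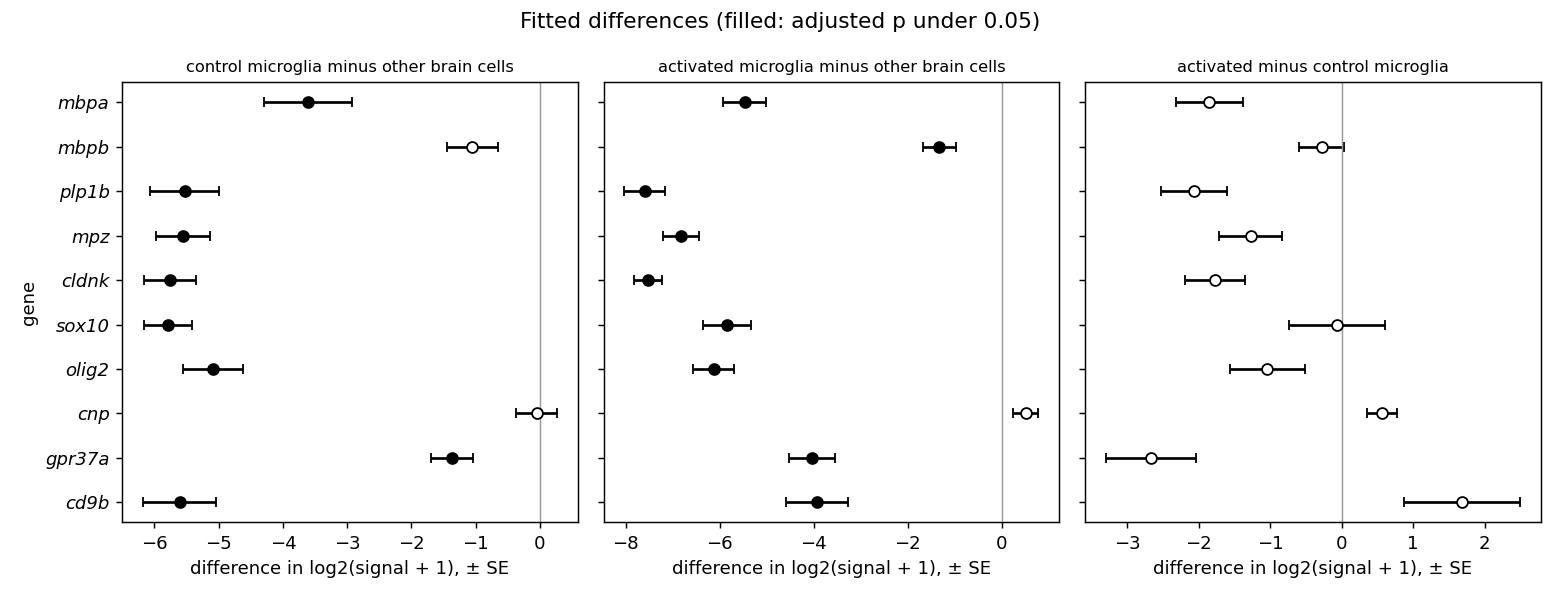
Fitted differences in log2(signal + 1) with their SE for the 10 genes in 3 comparisons; filled points passed an adjusted p of 0.05 in limma. Against other brain cells 8 genes are filled for control and 9 for activated microglia, and 0 are filled for activated minus control microglia.

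The share that a microglia library showed of the level in other brain cells differed between members. A gene is said to keep this share in number only, and where its RNA came from was not tested. This share was computed on the signal above the constant, as a percent of the mean of the 3 other brain cell libraries, with exact Poisson intervals at 95% that cover counting error only. For mbpa it was 11.4% (11.1 to 11.6) and 4.92% (4.78 to 5.08) in control samples 1 and 5, 1.99% and 2.94% in 24 h samples 3 and 7, and 1.26% and 2.46% in 48 h samples 4 and 8. For plp1b it was 2.56% and 1.65%, 0.378% and 0.856%, and 0.294% and 0.572% in the same order. mpz lay between 0.577% and 2.45% and cldnk between 0.301% and 2.48%. The share of mbpa was above those of plp1b, mpz, cldnk and olig2 in 6 of 6 libraries and above that of sox10 in 5 of 6. sox10 was between 0.11% and 1.36% in 5 libraries, with wide intervals (0.00279 to 0.614 in 48 h sample 8), and 3.91% (2.77 to 5.37) in 24 h sample 7. mbpb kept 27.8% to 54.4%, and cnp 88.8% to 158.5%. gpr37a kept 32% and 41.5% in control samples 1 and 5, then 11.8%, 2.41% and 2.65% in samples 3, 7 and 4, and 0% in sample 8, where 0 reads allow up to 1.19%. cd9b kept 2.5% and 1.14% in control microglia, 4.2% and 6.48% at 24 h, and 2.16% and 17.0% at 48 h. These shares depend on the authors' scaling, which the intervals do not cover. On RPM every member share above 0% was lower. There mbpa kept 8.89% and 3.91% in control samples 1 and 5. Over the 6 microglia libraries mbpb kept 23.0% to 41.9% and cnp 61.8% to 124.9% on RPM, and cd9b kept 9.85% in 48 h sample 8.

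**Figure D3:**
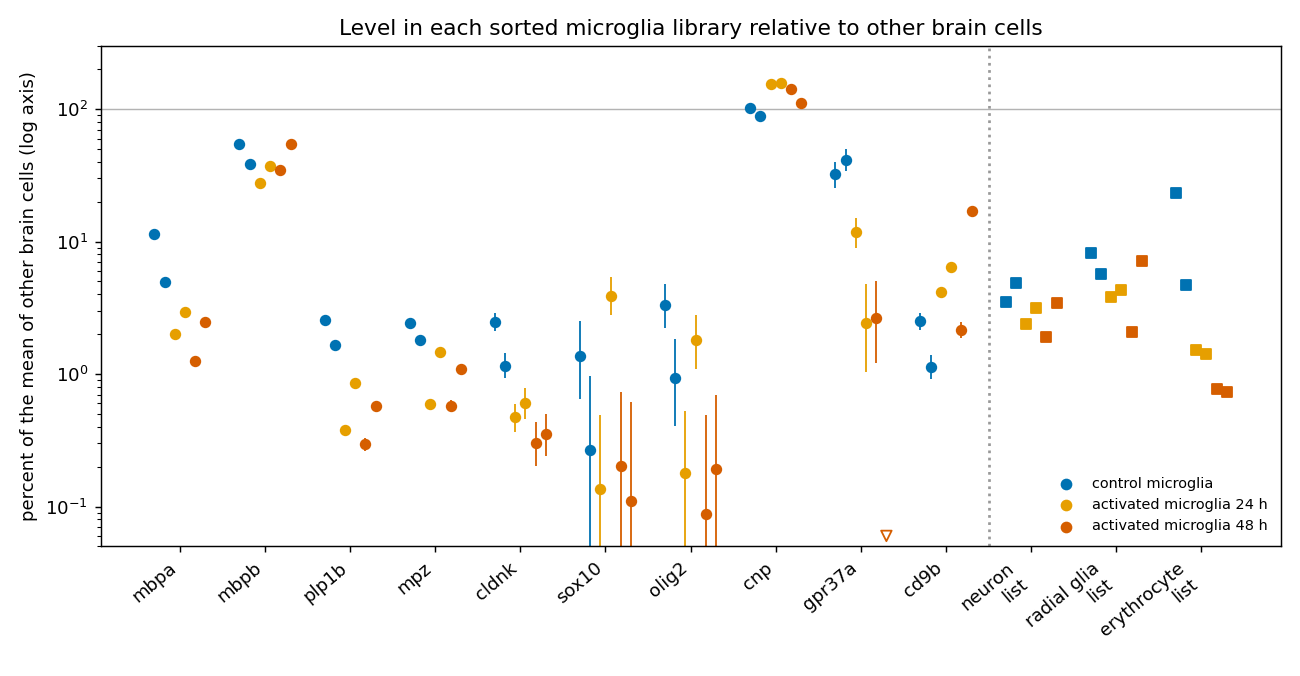
Level in each of the 6 microglia libraries as a percent (log axis) of the mean of other brain cells; circles are the 10 genes with exact Poisson intervals at 95%, squares the median gene of the neuron, radial glia and erythrocyte lists, the line is 100%, and the open triangle marks 48 h sample 8 with 0 reads of gpr37a. mbpa lies above plp1b, mpz and cldnk in each library, mbpb and cnp lie above all list medians, and cd9b is highest in 48 h sample 8.

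Markers of other brain cell types were also present in the microglia libraries. The median of 26 neuron markers stood at 3.5% and 4.88% of its level in other brain cells in control samples 1 and 5, and at 2.39%, 3.15%, 1.92% and 3.45% in samples 3, 7, 4 and 8. The summed neuron signal ran from 221.3 to 233.8 in control microglia, from 108.6 to 170.9 in activated microglia and from 3121.2 to 5905.8 in other brain cells. From 0 to 2 of the 26 genes had 0 reads in a microglia library, and these were the glutamate transporters slc17a6a, slc17a6b and slc17a7a, camk2a and cplx2. snap25a, a synaptic protein and the neuron marker with the highest signal in other brain cells, kept 4.51% and 5.47% in control samples and 1.89% to 3.54% in activated ones. elavl3, an RNA-binding protein, kept 0.437% to 2.4%, and atp1a3a, a sodium pump subunit, 1.26% to 5.34%.

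Set against the interquartile range of the neuron list in the same library, mbpa lay within it in 4 of 6 libraries, above it in 1 and below it in 1. mpz and cldnk lay below it in 6 of 6 libraries, plp1b and sox10 in 5 and olig2 in 4. mbpb and cnp lay above it in 6 of 6. The median of the radial glia list, 17 genes in 18 rows, ran from 2.08% to 8.18% with no gene at 0 reads. Its summed signal was 4316.9 and 5118.7 in control, 3310.2 to 27692.7 in activated microglia and 10002.8 to 17427.3 in other brain cells. It was led by glula, a glutamine synthetase, at 52.6% to 465.3%, while fabp7a, a fatty acid-binding protein, kept 1.77% to 11.5% and the connexin cx43 6.52% to 12.9%.

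The median of the erythrocyte list, 8 genes, was at 23.1% and 4.67% in control samples 1 and 5 and between 0.728% and 1.51% in activated microglia. The globin gene ba1 was at 24.2% in sample 1 and 3.51% in sample 5, hbaa1 at 23.8% and 3.64%, and ba1l at 22.4% and 3.54%. These globin genes, alas2 and slc4a1a were lower in every activated library than in both controls. The rest of the list did not follow. The upper quartile of the list was 25.7% and 28.5% in control samples 1 and 5 and 20.2% to 42.1% in activated microglia. Between activated and control microglia epb41b differed by 0.82 ± 0.50, blvrb by 0.44 ± 0.71 and gata1a by -0.40 ± 0.29 (log2, SE; limma adjusted p = 0.404, 0.756 and 0.485). The summed erythrocyte signal was 847.1 and 153.3 in control, 45.4 to 109.3 in activated microglia and 1968.0 to 5105.3 in other brain cells. The 109.3 was that of 48 h sample 8, where blvrb alone stood at 84.5. slc4a1a, an anion exchanger of red cells, had 0 reads in both 48 h libraries. Among the microglia libraries, control sample 1 had the most globin and also the most mbpa, plp1b, mpz and cldnk. Other markers were split between control samples 1 and 5. The radial glia median was higher in sample 1 (8.18% and 5.65%). The neuron median (3.5% and 4.88%), epb41b (3.31 and 7.83) and gata1a (0.996 and 2.81) were higher in sample 5. The part of carried-over cells, free RNA or engulfed material in the myelin values was not tested.

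The ratio of mbpa to plp1b set microglia apart from other brain cells. It was 4.41 and 2.98 in control samples 1 and 5, 5.23 and 3.42 in 24 h samples 3 and 7, and 4.25 and 4.28 in 48 h samples 4 and 8. In other brain cell samples 2, 6 and 10 it was 0.843, 1.19 and 0.872. All 6 microglia libraries thus lay above the 3 other brain cell libraries, with or without control sample 1. The ratio of mbpa to mpz was 3.42 to 7.91 in microglia against 0.92 to 2.6, and that of mbpa to cldnk 48.4 to 80.9 against 8.14 to 14.2. Among the 15 pairs of mbpa, plp1b, mpz, cldnk, sox10 and olig2, only these 3 did not overlap. plp1b to mpz, for example, ran from 0.873 to 1.79 in microglia and from 1.05 to 2.19 in other brain cells. The ratios to plp1b, mpz and cldnk were chosen after their values were seen and have no test. Over all 45 pairs of the 10 members, 21 did not overlap, the others of them involving mbpb, cnp or gpr37a. How often pairs of other genes do so is not given here, so these counts are not read as particular to the members.

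**Figure D4:**
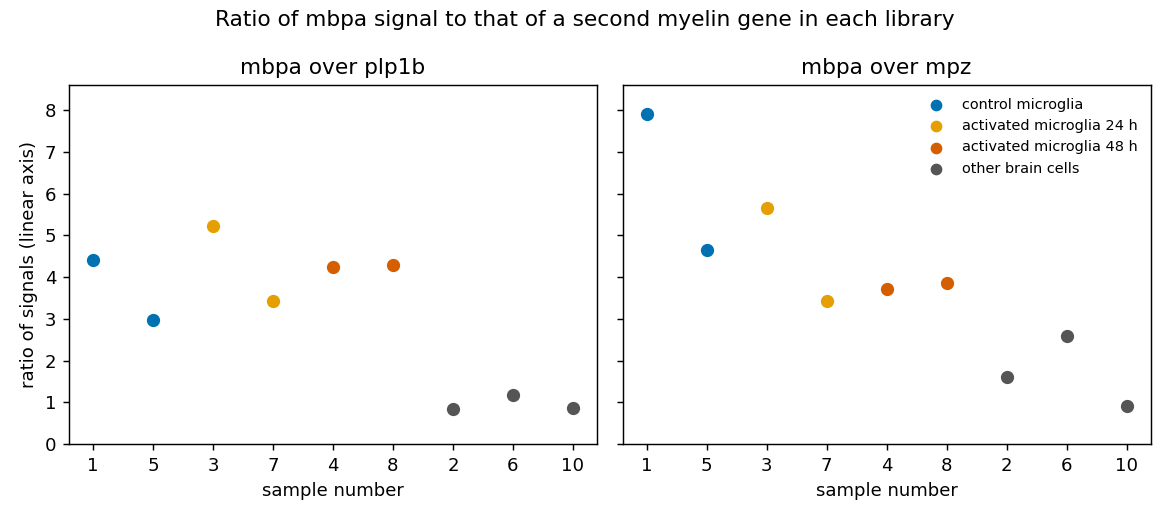
Ratio of the mbpa signal to that of plp1b (left) and mpz (right) in each library by sample number, on a linear axis from 0. The 6 microglia libraries lie between 2.98 and 5.23 for plp1b and between 3.42 and 7.91 for mpz, above the other brain cell libraries in both panels.

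A test of each of the other 9 members relative to sox10 found 0 that passed. In an exact two-sided permutation test of log2(member + 1) minus log2(sox10 + 1), 6 microglia against 3 other brain cell libraries, the smallest p the design allows is 0.0238. With 9 tests, a member can pass after adjustment only if several reach that p together. The 0 that passed therefore says little about any single member. cnp differed by 6.16 and mbpb by 4.6 (both exact permutation p = 0.0238, adjusted p = 0.107), each higher relative to sox10 in microglia. gpr37a differed by 2.69 (exact permutation p = 0.0476, adjusted p = 0.143). mbpa differed by 0.98 and plp1b by -1.08 (exact permutation p = 0.214 and 0.19, both adjusted p = 0.276). With a pseudocount of 5, 6 passed, and mbpa turned to -0.58, and sox10 had 1 or 2 reads in 4 of the 6 microglia libraries.

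Activated and control microglia, the states named in the labels, were compared next. In limma with Benjamini-Hochberg adjustment 0 of 10 members passed in either direction, where 0.834% of all genes were higher and 0.47% lower. At an unadjusted p under 0.05 there were 6 members, where 20.5% of all genes tested were. In limma-voom there were also 6, where 3703 of the 21714 genes were, and it called 0. gpr37a differed by -2.67 ± 0.63, plp1b by -2.07 ± 0.46, mbpa by -1.85 ± 0.47 and cldnk by -1.77 ± 0.42 (log2, SE; limma adjusted p = 0.092, 0.0827, 0.107 and 0.0941). mpz differed by -1.27 ± 0.44 and cnp by 0.56 ± 0.21 (limma adjusted p = 0.181 and 0.201), and cd9b by 1.68 ± 0.81 (limma adjusted p = 0.31). The 4 activated libraries all lay under both controls for 5 members, mbpa, plp1b, mpz, cldnk and gpr37a, and all above for cnp. Of all genes tested, 15.5% lay under and 15.9% above in this way. On RPM the 5 members stayed under both controls, but cnp in 48 h sample 8 fell under both controls. The median member differed by -1.15, the median of all genes by 0.01, and the medians of the neuron, radial glia and erythrocyte lists by -0.54, -0.79 and -1.52. Of these lists, cyp19a1b, the brain aromatase of radial glia, fell, with 28.7 ± 2.36 in control (SD, n = 2) and 8.58 ± 0.89 in activated microglia (SD, n = 4), and so did slc4a1a, with 2.14 ± 0.563 and 0.33 ± 0.167 (limma adjusted p = 0.0452 and 0.0447). The part of those cell types in the myelin values was not tested.

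The authors' deposited table has a comparison headed ND_MG_VS_CTRL_MG, which may not be the same comparison. It lists log2 fold changes of -3.14 for gpr37a, -1.94 for cldnk, -1.82 for mbpa and -1.72 for plp1b (FDR 0.000659, 0.000379, 0.0232 and 0.038), and 2.23 for cd9b (FDR 0.0166). At an FDR under 0.05 that table has 2.39% of its genes higher and 3.31% lower, and the libraries behind its comparison are not named. The limma outcome moved with the settings. With all 9 libraries in 1 fit, plp1b, cldnk and gpr37a were called lower (limma adjusted p = 0.0453, 0.0373 and 0.0341). Over the 17 alternatives the adjusted p ran from 0.0453 to 0.611 for plp1b, from 0.0373 to 0.611 for cldnk, from 0.0341 to 0.611 for gpr37a and from 0.0647 to 0.611 for mbpa. With the sample 9 column as a control, 1 member had an unadjusted p under 0.05, as did 1464 of all genes. Without 48 h sample 8, cnp was called higher, at 0.67 (limma adjusted p = 0.0496, range over the alternatives 0.0496 to 0.652).

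At 24 h and at 48 h taken apart, 0 members passed in limma in either direction, with 5 at an unadjusted p under 0.05 at each time, where 15.7% of all genes tested were at 24 h and 18.3% at 48 h. limma-voom had 5 and 6 such members and also called 0 members. Its own share over all genes at that p is not given here. In limma 0.00461% of all genes were higher and 0% lower at 24 h, and 0% in either direction at 48 h. mbpa differed by -1.63 ± 0.56 at 24 h and by -2.08 ± 0.56 at 48 h, and gpr37a by -2.13 ± 0.63 and -3.22 ± 0.63 (log2, SE; limma adjusted p = 0.278, 0.178, 0.238 and 0.126). Between 48 h and 24 h, limma called 0 members, where 0% of all genes were called. At an unadjusted p under 0.05 it had 0 members, where 4.14% of all genes were. limma-voom had 1 such member and called 0, and its share over all genes is not given here either. The difference for mbpa was -0.46 ± 0.56 and for cd9b 0.22 ± 1.02 (limma adjusted p = 0.909 and 0.985), and cd9b turned to -1.24 without 48 h sample 8 and to -0.08 without 24 h sample 3.

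By time, the authors' deposited table lists 0 members under an FDR of 0.05 at 24 h, with 0.588% of its genes higher and 0.556% lower. At 48 h the authors' deposited table lists cldnk at -2.30 and gpr37a at -4.33 (FDR 0.00197 and 0.00121) and cd9b at 2.65 (FDR 0.0105), with 2.4% of its genes higher and 1.77% lower. Between 24 h and 48 h the authors' deposited table lists 0 members, with 0% higher and 0.0276% lower.

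The wider set of oligodendrocyte lineage and myelin genes, 45 measured of 61 listed, held 26 that were lower in control microglia than in other brain cells, 1 higher and 18 that did not pass in limma, where 20.2% of all genes were lower and 15.1% higher. Their median was -2.42 against -0.14 for all genes. The largest negative differences were -5.51 ± 0.52 for nfasca, a neurofascin that joins axon and sheath, -5.47 ± 0.51 for mag, a myelin glycoprotein, -5.28 ± 0.39 for the claudin cldn19 and -5.18 ± 0.57 for lpar1, a lysophosphatidic acid receptor (limma adjusted p = 0.000166, 0.000167, 7.06e-05 and 0.000313). The signal of mag was 215.5 ± 127.6 in other brain cells (SD, n = 3) but 3.69 ± 2.31 in control microglia (SD, n = 2). The gene that was higher was the connexin cx32.2, whose signal was 1.04 ± 0.716 in other brain cells (SD, n = 3), 236.1 ± 54.5 in control (SD, n = 2) and 302.6 ± 76.2 in activated microglia (SD, n = 4), a difference between control microglia and other brain cells of 6.90 ± 0.43 (limma adjusted p = 4.68e-05). It was placed on the list because mammalian connexin 32 occurs in myelinating cells. The next largest positive differences did not pass, with aspa, an aspartoacylase, at 0.82 ± 0.47, the deacetylase gene sirt2 at 0.62 ± 0.38 and mpzl1l at 0.55 ± 0.47 (limma adjusted p = 0.221, 0.249 and 0.409).

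Against other brain cells, activated microglia had 33 of these 45 genes lower and 2 higher in limma, where 27.6% of all genes were lower and 22.9% higher. The higher ones were cx32.2 and egr2b, a transcription factor that macrophages share with Schwann cells. Between activated and control microglia 0 of the 45 passed in limma, with a median of -0.47 against 0.01 for all genes, and 14 lay lower and 0 higher without overlap, where 15.5% and 15.9% of all genes did. plp1a, the paralogue of plp1b, was among the 14, with a signal of 19.6 ± 6.84 in control (SD, n = 2) and 2.82 ± 1.23 in activated microglia (SD, n = 4). The number of the 45 genes with 0 reads was 4 to 10 in a microglia library and 0 in each other brain cell library. olig1, a partner of olig2, had 0 reads in 5 of the 6 microglia libraries. These 0 reads still allow up to 4.71% (24 h sample 3) to 9.39% (control sample 1) of its mean in other brain cells.

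Profiles over the libraries were compared by the root mean square distance of centred log2(signal + 1) values among 7288 genes with a mean signal of at least 20. Over the 9 libraries the genes nearest to mbpa were stxbp6l at a distance of 0.19, gadd45gb.1 at 0.31, tmsb at 0.36, lmo3 at 0.40 and si:dkey-235h8.1 at 0.42. mpz ranked 222 and plp1b 314. Over the 6 microglia libraries alone the nearest were stxbp6l at 0.20, gadd45gb.1 at 0.21, cldnk at 0.25, plp1b at 0.26 and nr2f1a at 0.26, with mpz at rank 27. The paralogue mbpb ranked 835 from mbpa over the 9 libraries and 1236 over the 6, and cnp 3244 and 4454. The genes nearest to sox10 over the 9 libraries were sh2d3cb at 0.38, cnksr2b at 0.41, olig2 at 0.47, slc6a1b at 0.49 and C8H9orf172 (2 of 2) at 0.50, and mpz ranked 27. All these profiles share the libraries and their scaling. The mean of 20 was taken over all 9 libraries, so genes low in microglia could pass through other brain cells alone. tmsb had a mean signal of 1.72 in microglia and 78.9 in other brain cells, and sh2d3cb 1.07 and 116.7. Signals this low lie close to the 1 added before the log, so distances and ranks can depend on the filter and pseudocount.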

How the data were processed

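RNA was made into libraries with the SMARTer Ultra Low Input and TruSeq kits and sequenced as single-end reads, per the labels' protocols, which state no strand. Build GRCz10 and the tools edgeR (no version), SAMtools 0.1.18 and TopHat2 2.0.5 are listed in the submitters' processing notes. The counter, annotation and scaling are not given in the sources used here. The deposited signal, a scaled read coverage, was not plain CPM. Taken above the constant, 100% of its values were whole multiples of 1 read within a tolerance of 0.05 reads. Log2 fold changes and FDR (adjusted p-values) for 5 comparisons were deposited in a further table of the authors. All 10 per-sample columns were mapped.

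Genes with a signal of at least 1 in at least 2 of the 9 libraries (21714 genes) were fitted as log2(signal + 1) with limma 3.58.1 in R 4.3.3 (trended eBayes, two-sided, threshold 0.05 on p-values adjusted by Benjamini-Hochberg across the genes), tested on simulated data. The comparisons with a single time point and between times used 1 fit of 3 groups. Ratios were tested with exact permutation. Python 3.11.15, numpy 2.4.6, scipy 1.17.1, pandas 2.3.3 and matplotlib 3.10.9 were used. Members and lists were chosen with earlier results of these data known. Text names all members, the 4 largest differences in each direction of the wider oligodendrocyte list, its called genes between activated and control microglia, the 3 highest neuron, radial glia and erythrocyte genes, and the 5 nearest profiles. egr2b, plp1a, olig1, cyp19a1b, slc4a1a, epb41b, gata1a, blvrb and the neuron genes at 0 reads were named after their values were seen. Gene positions and sequences were not used here. Alternatives were other pseudocounts, filters and normalizations, 1 fit of all libraries, the sample 9 column as a control, and each library left out. limma-voom on reads and RPM (reads scaled to the library total) were added after seeing the data.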

Additional observations from a re-analysis of the deposited data

Results flagged for a closer look

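In activated microglia (n = 4, both times pooled), 24 h sample 7 stood apart for the transcription factors. Its sox10 signal was 4.67, and the gap to the next library was 0.976 of the group's range. Its olig2 signal was 2.56, with a gap of 0.939 of the range. Of 10 members looked at in this way these 2 passed Dixon's 95% value of 0.829, which chance passes in about 1 of 20 groups. The signals rest on 38 and 20 reads. Sample 7 was also the highest of the 4 activated libraries for mbpa, plp1b, mpz and cldnk.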

How the results depend on the processing

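Of 1010 recomputed member differences, 966 kept direction and side of the threshold, 5 lost and 12 gained a call, and 27 changed sign, none of them past the threshold. Sample 9 was already left out, so leaving out samples 9 and 3 repeats the fit without 24 h sample 3. Both are counted here. Between control microglia and other brain cells, leaving out samples 9 and 3 changes only the filter on low values. Genes called between control microglia and other brain cells numbered 7648, and 4021 to 8171 with 1 library left out, lowest without control sample 1 or 5 (4021 and 4204). For activated against control microglia they numbered 283, but 651 with a filter at 5, 563 with all 9 libraries in 1 fit, 7 on RPM, and 0 in limma-voom, with sample 9 as a control or with samples 9 and 3 left out. Leaving out 1 library gave 0 to 1553, the highest without 48 h sample 8. At 24 h the 1 called gene became 0 with a pseudocount of 5, no trend, limma-voom, RPM, either change to samples 9 and 3, and any library left out (0 to 0). At 48 h, 0 became 110 with the filter at 5, 4 with quantile normalization, 302 with all 9 libraries and 3 in limma-voom. The median share of brain kept by members was 1.99%, and 1.74% to 2.45% with 1 library left out.

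Scaling moved the split of higher and lower genes. Against other brain cells, control microglia had 3269 higher and 4379 lower, 3557 and 3428 after quantile normalization, 2515 and 5116 on RPM, and 2423 and 4101 in limma-voom. Activated microglia had 4970 and 6000, 5725 and 5126, 3583 and 7247, and 3322 and 7031. The median of all genes moved from -0.14 to 0.06, -0.48 and -0.57 for control and from -0.05 to 0.13, -0.42 and -0.56 for activated microglia, while 8 or 9 and 9 members stayed lower.

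The cause of the sign changes was not tested. cnp in control microglia against other brain cells was 0.18 with sample 9 as a control and -0.20 to 0.12 with 1 library left out; in activated microglia it was -0.10 after quantile normalization. sox10 in activated against control microglia was 0.03 with a pseudocount of 5, 0.09 after quantile normalization, 0.14 with sample 9 as a control, 0.12 without samples 9 and 3, and -0.56 to 0.37 with 1 library left out; at 24 h that range was -0.58 to 1.46. mbpb at 48 h against control was 0.17 with sample 9 as a control and -0.38 to 0.25 with 1 library left out. Between 48 h and 24 h, cd9b was -0.06 in limma-voom and -0.08 both on RPM and without samples 9 and 3, and with 1 library left out the ranges were -1.24 to 1.68 for cd9b, -0.94 to 0.03 for mbpa, -1.04 to 0.12 for plp1b, -0.87 to 0.40 for mpz and -2.02 to 0.02 for sox10. Relative to sox10 with a pseudocount of 5, 6 members passed in place of 0, and mbpa turned to -0.58, olig2 to -0.07 and cd9b to -0.09; olig2 ran from -0.14 to 0.22 with 1 library left out.

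No paired analysis was possible because each sample has its own number in the labels and groups share none. The planned edgeR and DESeq2 tests were not run, since the values as deposited are not counts. Reads recovered from them were used in limma-voom and RPM. Depth limits sox10, olig2 and gpr37a in activated microglia, where single libraries held 0 to 3 reads.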
